A study of Mus musculus with 6 samples.

Results

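The laminin and nidogen genes measured in cultured fibroblasts of mouse embryos (MEFs) are described here in RNA-seq libraries of wild type (WT) and Aff3ir-ORF2-/- mice, with 3 libraries of each genotype. The group holds 10 of the 17092 genes of the deposited table: the laminin α chain genes *Lama1* (NCBI Gene ID 16772), *Lama2* (16773), *Lama3* (16774), *Lama4* (16775) and *Lama5* (16776), the β chain genes *Lamb1* (16777) and *Lamb2* (16779), the γ chain gene *Lamc1* (226519), and the nidogen genes *Nid1* (18073) and *Nid2* (18074). They were taken by symbol. The group was chosen by someone who knew how the counts of these libraries compared between Aff3ir-ORF2-/- and WT, so the difference between genotypes is given for its members as a description, without p-values. The Aff3ir-ORF2-/- mice lack a protein encoded by *Aff3ir*, a gene nested in *Aff3*, in all tissues. The number and age of the embryos behind the libraries are not given in the sources used here, and nothing says that the 3 libraries of a genotype came from separate cultures, so the p-values given below for other genes measure the spread between libraries, which may be technical.

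Laminins are secreted proteins of the basement membrane, the thin sheet of matrix that underlies epithelia and endothelia and surrounds muscle, fat and nerve cells. Each molecule is built from an α, a β and a γ chain. The α chain carries the globular end that binds integrins and dystroglycan on the cell surface, and the chains' short arms join laminins into a network. Nidogens bind the laminin γ1 chain and type IV collagen and so link both networks. Fibroblasts are known as a source of laminin and nidogen in connective tissue.

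The values are estimated read counts per gene, with 17435133 to 17726034 counts per WT library and 18209421 to 18252330 per Aff3ir-ORF2-/- library. They are given as CPM, the count scaled to the TMM-adjusted library total, and, where genes are compared with each other, as CPM per kilobase of the longest protein-coding transcript. *Aff3ir* was not analysed here. *Aff3* had 406 to 418 counts per WT library and 186 to 229 per Aff3ir-ORF2-/- library, and how reads shared with the nested gene were counted is not known. The fibroblast label was checked on 12 marker genes, whose summed level was 30382 to 30523 CPM in WT and 25349 to 32120 CPM in Aff3ir-ORF2-/- libraries, with 1 called higher and 1 lower. Without *Fn1*, the marker with the most counts, it was 21558 to 21603 and 14191 to 19147 CPM. Of 15 macrophage markers, 14 were tested and all 14 were called higher in Aff3ir-ORF2-/- libraries (edgeR, thresholds as below). Their summed level was 19.7 to 23.4 CPM in WT and 1310, 1809 and 2232 CPM in Aff3ir-ORF2-/- replicates 1, 2 and 3, and *C1qa*, *C1qb* and *Aif1* were at 0 in every WT library. Markers of smooth muscle (4 of 7 tested called higher) summed to 4415 to 4516 CPM in WT and 7224 to 7948 CPM in Aff3ir-ORF2-/- libraries. *Acta2* held 56.9% of these counts, and the sums without it were 1998 to 2034 and 2874 to 3402 CPM. *Smtn*, *Lmod1* and *Synpo2* were not called, and *Smtn* had 2040 to 2119 counts in WT and 1417 to 1725 in Aff3ir-ORF2-/- libraries. Parietal endoderm is an embryonic cell layer that makes much laminin. Its markers (4 of 4 tested called higher) summed to 200.2 to 204.8 against 281 to 459 CPM. *Thbd* held 97.7% of these counts, and the sums without it were 3.49 to 4.096 and 8.80 to 10.3 CPM. Those of mesothelium (3 of 4 tested called higher) summed to 6.53 to 8.53 against 29.8 to 35.9 CPM. Schwann cell markers (4 of 5) summed to 8.93 to 9.56 against 12.1 to 23.7 CPM. Pericyte markers (2 of 4) summed to 205 to 211 against 267 to 292 CPM. *Cspg4* held 95.3% of the pericyte counts, and the sums without it were 5.69 to 6.58 and 14.1 to 22.3 CPM. Over all tested genes, 14.2% were called higher and 7.27% lower, to be set beside each count of called markers. Skeletal muscle markers (2 of 3 tested called higher) summed to 89.2 to 92.9 CPM in WT and 268 to 378 CPM in Aff3ir-ORF2-/- libraries. The called ones were *Acta1* and *Des*, and *Chrna1* was not called. *Acta1* held 83.6% of these counts, and the sums without it were 13.9 to 15.4 and 41.6 to 59.7 CPM. *Myf5*, *Pax7* and *Myh3* were at 3 counts or fewer in every library. Endothelial markers (3 of 6 tested called higher and 1 lower) summed to 11.7 to 12.2 and 19.2 to 24.0 CPM, with *Sox17* at 3 counts or fewer in every library. Adipocyte markers (1 of 3 tested called higher) summed to 31.7 to 33.4 and 35.6 to 43.1 CPM, and epithelial markers (0 of 2 tested called) to 22.2 to 23.1 and 12.99 to 25.4 CPM. The part of these cell types in the levels below was not tested, and in such bulk RNA fewer cells of a type and less RNA per cell cannot be told apart. Aff3ir-ORF2-/- libraries differed more among themselves than WT libraries did, and for 5 of the 9 tested members replicate 2 was the Aff3ir-ORF2-/- library farthest from the other 2.

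Promoter sequences from RefSeq (mouse build GRCm38.p6) were at hand for 5 of the 10 members. For 3 of them the 250 bases before the transcription start are printed on the gene's strand, to set the chain with the largest difference between genotypes beside both β chains. *Lama5* (chr2:180225860-180226109, minus strand) had the largest difference, *Lamb1* (chr12:31265043-31265292, plus strand) had almost none, and *Lamb2* (chr9:108479612-108479861, plus strand) lay between them. Capitals mark the GC box GGGCGG and the CCAAT box, searched on both strands.
Lama5: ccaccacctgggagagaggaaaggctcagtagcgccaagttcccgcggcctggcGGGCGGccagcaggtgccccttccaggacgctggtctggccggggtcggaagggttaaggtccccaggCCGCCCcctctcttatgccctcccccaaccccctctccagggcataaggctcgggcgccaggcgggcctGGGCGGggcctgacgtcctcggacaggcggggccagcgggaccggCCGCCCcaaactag
Lamb1: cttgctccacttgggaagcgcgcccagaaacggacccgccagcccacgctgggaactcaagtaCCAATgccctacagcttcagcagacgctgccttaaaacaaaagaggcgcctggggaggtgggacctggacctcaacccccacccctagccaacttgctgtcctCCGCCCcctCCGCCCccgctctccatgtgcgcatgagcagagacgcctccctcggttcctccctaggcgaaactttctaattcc
Lamb2: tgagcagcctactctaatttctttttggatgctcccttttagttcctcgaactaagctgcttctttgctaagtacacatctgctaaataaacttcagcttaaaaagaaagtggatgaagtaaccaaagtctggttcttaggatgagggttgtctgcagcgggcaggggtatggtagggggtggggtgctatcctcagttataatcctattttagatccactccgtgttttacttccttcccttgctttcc
The *Lama5* window held 4 GC boxes and was 72.4% G or C. The *Lamb1* window held 2 GC boxes and 1 CCAAT box and was 62% G or C. The *Lamb2* window held neither motif and was 43.6% G or C. Of the other windows, that of *Nid1* held 1 of each and that of *Lama2* held neither. Among 32851 RefSeq promoter windows of this length, 32.7% held a GC box and 33.8% a CCAAT box. The TATA box TATAAA (12.4% of windows) and the AP-1 motif TGANTCA (6.75%) were found in none of the 5. No 2 matches overlapped, and a match describes the sequence only. No binding was measured here.

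Together the 10 members took 0.261% to 0.265% of the counts of a WT library and 0.266% to 0.267% of an Aff3ir-ORF2-/- library. Per kilobase, the order of levels in WT was *Nid1* (174 ± 1.63 CPM per kb, mean ± SD, n = 3), *Lamb1* (109 ± 1.40), *Lamc1* (64.1 ± 0.703), *Lamb2* (31.8 ± 1.43), *Lama4* (30.1 ± 0.371), *Lama2* (5.49 ± 0.137), *Nid2* (4.01 ± 0.0959), *Lama5* (3.12 ± 0.114), *Lama1* (0.372 ± 0.0274) and *Lama3* (0.0290 ± 0.0115). The lowest *Lamb2* library was at 30.9 and the highest *Lama4* library at 30.5 CPM per kb. In Aff3ir-ORF2-/- MEFs the first 5 genes kept this order. *Nid2* (12.3 ± 1.63) and *Lama5* (10.4 ± 0.265) then stood above *Lama2* (7.13 ± 0.524), where in WT both had stood below it. With these lengths, the libraries of neighbouring genes overlapped in neither genotype. The order below *Lama4* depends on the length. With the merged length of all exons, *Nid2* (3.78 CPM per kb) stood above *Lama2* (3.23) in WT and the libraries of *Lama2* and *Lama5* (3.12) overlapped, while in Aff3ir-ORF2-/- MEFs those of *Lama4* and *Nid2* and of *Nid2* and *Lama5* overlapped.

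**Figure D1:**
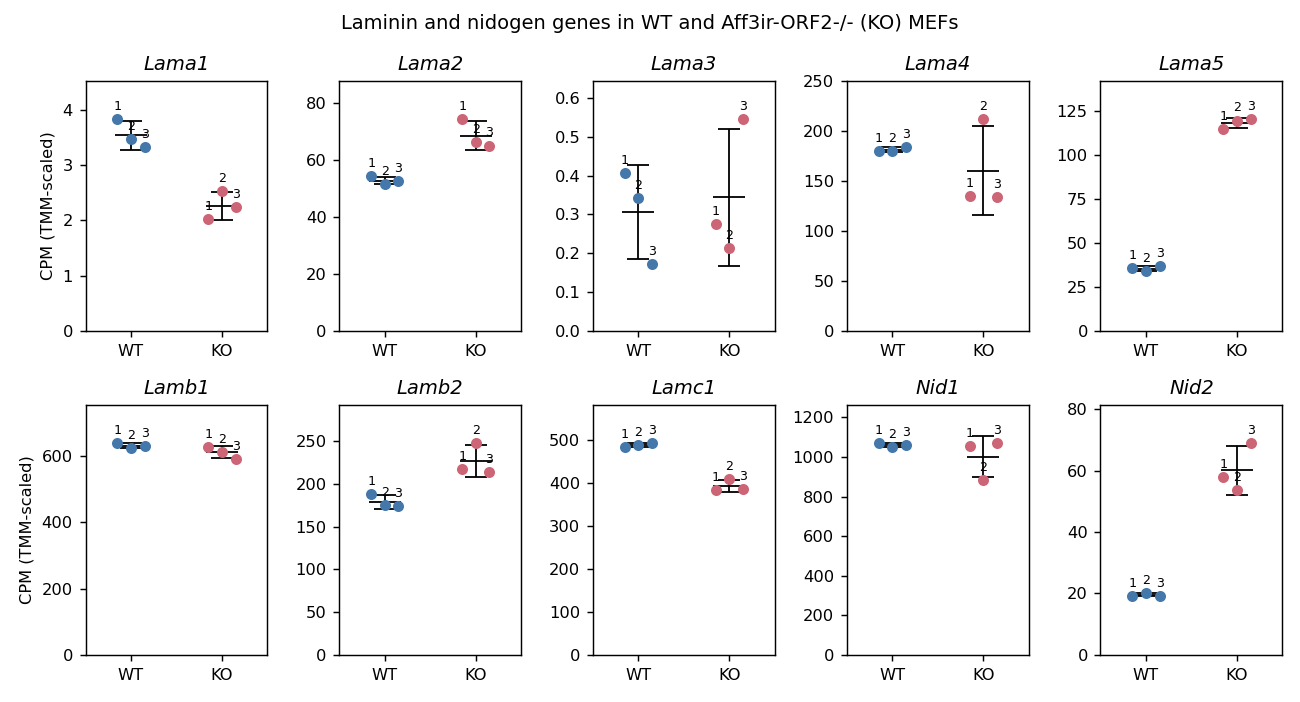
CPM of each laminin and nidogen gene in the 3 WT and 3 Aff3ir-ORF2-/- (KO) libraries, numbered by replicate, with the mean and SD as bars and a linear axis from 0 in each panel. *Lama5* and *Nid2* lie far above WT in all 3 Aff3ir-ORF2-/- libraries, while *Lama4* and *Nid1* are split by Aff3ir-ORF2-/- replicate 2.

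All tests across genes used edgeR's quasi-likelihood fit, and a gene was called when its Benjamini-Hochberg adjusted p was under 0.05 and its change at least 1.5-fold. Of the 13075 genes tested, 21.4% were called, 14.2% higher and 7.27% lower in Aff3ir-ORF2-/- MEFs. Of the 10 members, 9 passed the filter on low counts and *Lama3* did not. The call covered 3 of the 9, with *Lama5* and *Nid2* higher and *Lama1* lower, and the other 6 were not called. For 6 of the 9 members the WT and Aff3ir-ORF2-/- libraries had CPM ranges without overlap, beside 66% of all tested genes. Since the group was selected on this contrast, these calls are not a test of its members, and nothing is read from the counts. The members' median log2 fold change was -0.05, and that of all tested genes was 0.0056. Nearest to the 1.5-fold limit lay *Lama1* inside it, 1.56-fold lower, and *Lama2* outside it, 1.30-fold higher.

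**Figure D2:**
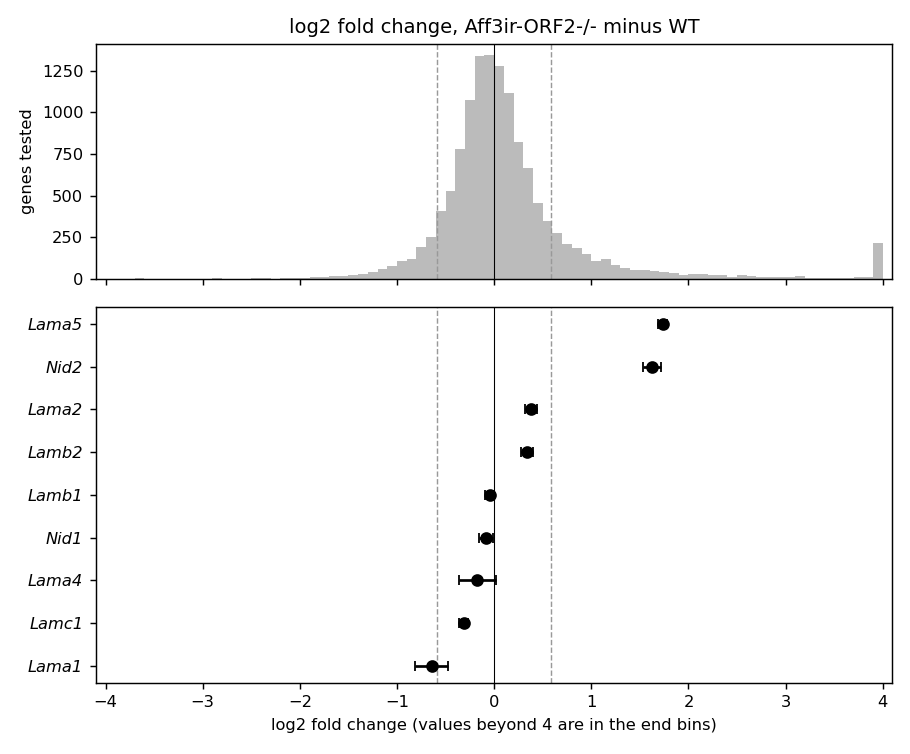
Log2 fold change (Aff3ir-ORF2-/- minus WT) of the 13075 tested genes as a histogram (top) and of the 9 tested members with standard errors (bottom), with dashed lines at a 1.5-fold change. *Lama5* (1.73) and *Nid2* (1.62) lie apart from the other 7 members, which lie between -0.64 and 0.38.

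Among the α chains, which set what a laminin binds, *Lama5* had the largest difference. It encodes the α5 chain, a widespread laminin chain of adult epithelia and vessels. *Lama5* was at 35.7, 34.1 and 36.7 CPM in WT replicates 1 to 3 and at 114.6, 119 and 120.2 CPM in Aff3ir-ORF2-/- replicates 1 to 3. Every Aff3ir-ORF2-/- library was far above every WT library, and the 3 lay close together. The level was 3.32-fold higher (log2 fold change 1.73, standard error 0.05), more than in 95.6% of tested genes. The value stayed between 1.70 and 1.77 under every alternative tried, including the omission of each library.

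*Lama4*, the α4 chain of vessels and mesenchyme, was the most abundant α chain per kilobase in both genotypes. It stood at 180, 181 and 184 CPM in WT and at 136, 212 and 135 CPM in Aff3ir-ORF2-/- replicates 1 to 3. The Aff3ir-ORF2-/- libraries lay on both sides of WT, with replicate 2 above and the other 2 below. Its log2 fold change over all libraries was -0.18 (standard error 0.19), which became -0.43 without Aff3ir-ORF2-/- replicate 2 and -0.07 without replicate 1 or replicate 3.

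*Lama2*, the α2 chain best known from the basement membrane of muscle and nerve, was at 54.2, 51.6 and 52.5 CPM in WT and at 74.3, 66.2 and 65.1 CPM in Aff3ir-ORF2-/- replicates. All 3 Aff3ir-ORF2-/- libraries were above all WT libraries, by less than the 1.5-fold of the call (log2 fold change 0.38, standard error 0.06). *Lama1*, the α1 chain of the early embryo, was low, with 66, 61 and 58 counts in WT replicates and 37, 47 and 41 in those lacking Aff3ir-ORF2. Its levels did not overlap, and the log2 fold change was -0.64 (standard error 0.17). Without WT replicate 1 it was -0.58 and without Aff3ir-ORF2-/- replicate 1 also -0.58, both just under 1.5-fold.

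*Lama3*, the α3 chain of epithelial basement membranes, had 7, 6 and 3 counts in the WT replicates, and the Aff3ir-ORF2-/- replicates had 5, 4 and 10. The ratio of the summed counts was 1.13, with an exact 95% interval of 0.548 to 2.34 that covers counting error only. A difference within that interval was not detectable at this depth.

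Of the β chains, *Lamb1* encodes β1, the partner in most laminins of developing tissue, and *Lamb2* encodes β2, known from the neuromuscular junction and the kidney filter. *Lamb1* was at 640, 623 and 631 CPM in WT and at 628, 613 and 592 CPM in Aff3ir-ORF2-/- replicates. The ranges overlapped, and the log2 fold change was -0.05 (standard error 0.04). *Lamb2* was at 188, 175 and 174 CPM in WT and at 217, 248 and 213 CPM in Aff3ir-ORF2-/- replicates. Its Aff3ir-ORF2-/- libraries were all above WT, with replicate 2 highest, and the log2 fold change was 0.34 (standard error 0.06), or 0.26 without that replicate.

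*Lamc1* encodes γ1, the γ chain of most laminins and the one that nidogens bind. It was at 483, 489 and 493 CPM in WT and at 385, 408 and 385 CPM in Aff3ir-ORF2-/- replicates. Every Aff3ir-ORF2-/- library was below every WT library, by less than the 1.5-fold of the call (log2 fold change -0.31, standard error 0.04).

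The nidogens differed from each other. *Nid1*, the most abundant member, was at 1071, 1052 and 1061 CPM in WT and at 1055, 882 and 1070 CPM in Aff3ir-ORF2-/- replicates. Aff3ir-ORF2-/- replicate 2 was the only library clearly below the rest, and the log2 fold change was -0.08 (standard error 0.07), or -0.0022 without it. *Nid2*, its paralog, was at 19.3, 20.1 and 19.2 CPM in WT and at 57.8, 53.6 and 69.0 CPM in Aff3ir-ORF2-/- replicates. The Aff3ir-ORF2-/- libraries were all well above WT and more spread out, and *Nid2* was 3.08-fold higher (log2 fold change 1.62, standard error 0.09). This value ranged from 1.51 without Aff3ir-ORF2-/- replicate 3 to 1.69 without replicate 2. *Nid1* and *Nid2* were the only members with counts that were not whole numbers, in all 6 libraries, and how the counting arrived at these values is not stated.

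**Figure D3:**
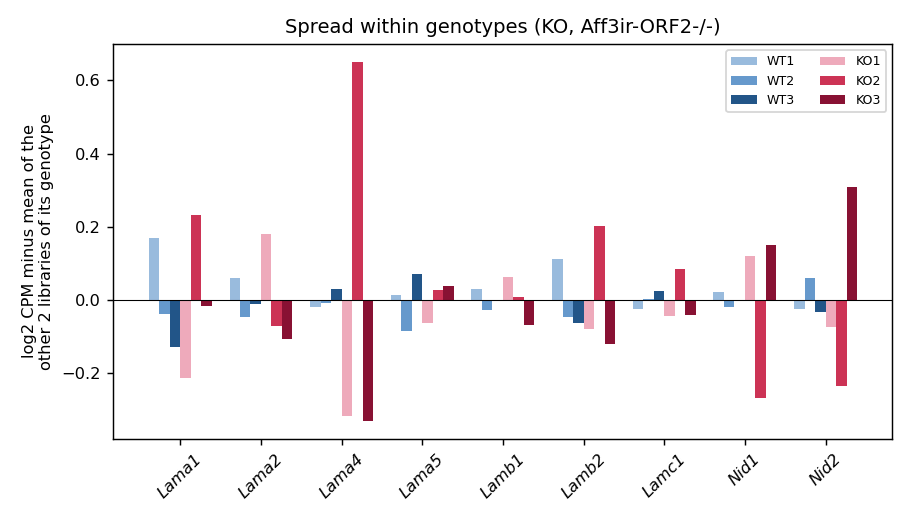
Log2 CPM of each library minus the mean of the other 2 libraries of its genotype, for the 9 tested members (WT in blue, Aff3ir-ORF2-/- in red). *Lama4* in Aff3ir-ORF2-/- replicate 2 stands 0.65 above the other 2, and *Nid2* in replicate 3 stands 0.31 above them.

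The spread between libraries was larger in Aff3ir-ORF2-/- than in WT for 8 of the 9 tested members, *Lama5* being the exception. Coefficients of variation of the CPM ran from 0.936% to 7.37% in WT and from 2.56% to 27.7% in Aff3ir-ORF2-/- libraries. Compared with the mean of the other 2 libraries, Aff3ir-ORF2-/- replicate 2 was higher in *Lama4* by 0.65, in *Lama1* by 0.23 and in *Lamb2* by 0.20 on the log2 scale. In the same library *Nid1* stood at -0.27 and *Nid2* at -0.24. The median absolute deviation of that library over all tested genes was 0.137, against 0.0955 for replicate 1 and 0.105 for replicate 3.

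The make-up of the α chains, the β chains and the nidogens was compared per kilobase, as shares of the class in each library. In WT, *Lama4* made up 76.9% ± 0.510 (SD, n = 3) of the α chain counts per kilobase and *Lama5* 7.98% ± 0.209. In Aff3ir-ORF2-/- MEFs these shares were 59.3% ± 6.29 and 23.7% ± 3.43. *Lama5* held 24.9%, 19.9% and 26.4% in replicates 1 to 3, each above the 8.15% of the highest WT library. *Lama2* was at 14.1% ± 0.356 and 16.4% ± 3.07, with overlapping libraries, and *Lama1* at 0.951% and 0.539%. These shares depend on the transcript length used. With the merged length of all exons, *Lama5* was at 14.3% in WT and 37.2% in Aff3ir-ORF2-/-, *Lama4* at 69.1% and 46.8%, and *Lama1* at 1.68% and 0.832%. The direction between genotypes was the same with either length for these 3 chains.

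Among β chains, *Lamb2* made up 22.5% ± 0.602 in WT and 27.5% ± 1.61 in Aff3ir-ORF2-/- MEFs. With the merged length of all exons these shares were 31.6% and 37.6%, so the level depends on the length but the direction does not. *Nid2* made up 2.25% ± 0.0705 of the nidogens in WT and 6.97% ± 0.531 in Aff3ir-ORF2-/- MEFs, so *Nid1* remained the main nidogen RNA in both. Summed per class, the α chains were at 39.1 ± 0.428 CPM per kb in WT and 44.4 ± 7.27 in Aff3ir-ORF2-/-, where replicate 2 was at 52.8 and the others at 40.4 and 39.9. With the merged length of all exons the α sums were 21.8 ± 0.264 and 28.2 ± 3.68, with 26.07, 32.4 and 25.98 in Aff3ir-ORF2-/- replicates 1 to 3, so both the level and the distance of replicates 1 and 3 from WT depend on the length. The β chains were at 141 ± 2.72 and 146 ± 5.03, and the nidogens at 178 ± 1.55 and 177 ± 18.4 CPM per kb with the longest transcripts, and with merged exons the β chains were at 93.1 and 98.8 and the nidogens at 157 and 156 CPM per kb.

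**Figure D4:**
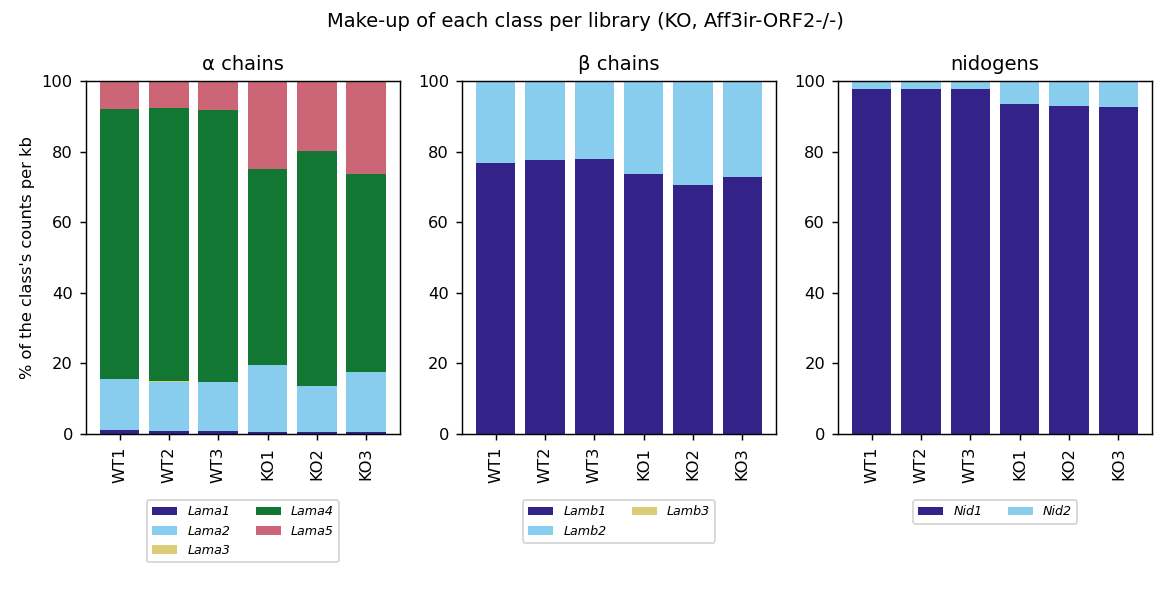
Share of each chain in the counts per kb of its class, in percent, for each WT and Aff3ir-ORF2-/- (KO) library. The *Lama5* band is 7.75% to 8.15% in the WT bars and 19.9% to 26.4% in the KO bars, while *Lamb1* and *Nid1* fill most of their classes in every bar.

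The other genes of the pathway, listed by role, were read from the same fit, with adjusted p-values over all tested genes. These lists were drawn up with earlier results of these data known. Their counts of calls and medians are therefore descriptions and not independent tests. *Lamc3*, a laminin γ chain outside the group, was at 0.996 ± 0.243 CPM in WT and 1.34 ± 0.470 CPM in Aff3ir-ORF2-/- MEFs (SD, n = 3), with a log2 fold change of 0.43 and an adjusted p of 0.289 (edgeR). *Lamb3*, a β chain of epithelial laminin, had 19 counts over the WT and 13 over the Aff3ir-ORF2-/- libraries, a ratio of 0.648 with an exact 95% interval of 0.294 to 1.38.

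Of 25 tested partners in the basement membrane, 5 rose and 8 fell, and 12 were not called. Over all tested genes, 14.2% were called higher and 7.27% lower. The list's median log2 fold change was -0.08, beside 0.0056 for all tested genes. *Smoc1*, a calcium-binding matrix protein, rose from 4.34 ± 0.197 to 29.6 ± 9.79 CPM (log2 fold change 2.77, adjusted p = 0.000290, edgeR), while its paralog *Smoc2* fell from 103 ± 1.57 to 60.7 ± 2.58 CPM (-0.76, adjusted p = 2.4e-06, edgeR). *Col4a6*, a minor chain of type IV collagen, rose by 1.64 on the log2 scale, from 2.95 to 9.19 CPM. The more abundant chains *Col4a1*, *Col4a2* and *Col4a5* had log2 fold changes of 0.22, 0.34 and 0.42. Their adjusted p-values were 0.00649, 0.000656 and 4.17e-05 (edgeR), and they missed only the 1.5-fold limit. *Tinagl1*, a matrix glycoprotein that binds laminin, rose by 1.38. *Npnt*, an integrin ligand, and *Frem1*, of the Fraser complex at the skin basement membrane, were also called higher, with adjusted p-values of 0.0363 and 0.0425. *Frem1* had 110 counts in Aff3ir-ORF2-/- replicate 2 and 44 and 42 in the others, and was 0.63 higher without that replicate in place of 1.23. The adjusted p of *Npnt* passed 0.05 in 6 of 15 alternatives (up to 0.0878) and that of *Frem1* in 5 (up to 0.13), among them the omission of any 1 WT library.

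The partners that fell included several large ones. *Agrn*, agrin, a heparan sulfate proteoglycan that ties laminin to dystroglycan, fell from 122 ± 1.98 to 59.6 ± 7.55 CPM (log2 fold change -1.03, adjusted p = 1.45e-05, edgeR). *Col7a1*, which forms anchoring fibrils below the epithelium, fell from 411 ± 13 to 193 ± 6.65 CPM (-1.09, adjusted p = 4.69e-07, edgeR). *Egflam*, pikachurin, a dystroglycan ligand (-1.68), *Col18a1*, the source of endostatin (-0.81), and *Fbln1*, a fibulin (-0.72), fell as well, as did *Col17a1*, a hemidesmosome collagen (-1.37), and *Egfl6*, a matrix protein of the EGF repeat family (-0.96). The most abundant partners, *Fbln2*, *Sparc* and *Hspg2*, the perlecan gene, did not pass the test, with changes of 0.02, 0.08 and 0.02 on the log2 scale (adjusted p = 0.776, 0.345 and 0.741, edgeR).

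Of 21 tested receptors and linkers of laminin, 8 rose and 2 fell, and 11 were not called. Over all tested genes the shares were 14.2% higher and 7.27% lower. The list's median log2 fold change was 0.38, beside 0.0056 for all tested genes. *Dag1*, dystroglycan, rose from 224 ± 1.67 to 372 ± 14.0 CPM (log2 fold change 0.73, adjusted p = 2.0e-06, edgeR). Of the listed genes for the complex that joins it to the cytoskeleton, *Dmd*, dystrophin, rose by 0.83 and *Sgcd*, a sarcoglycan, by 0.61. The others were not called: the sarcoglycans *Sgcb* and *Sgce* had log2 fold changes of 0.05 and 0.38, and *Utrn*, the dystrophin paralog utrophin, one of -0.23. Their adjusted p-values were 0.652, 0.000875 and 0.00255 (edgeR), so *Sgce* and *Utrn* missed only the 1.5-fold limit. Among integrins, *Itga1*, which binds collagen and laminin, rose from 7.88 ± 0.669 to 29.6 ± 3.33 CPM (1.91, adjusted p = 1.34e-06, edgeR) and *Itga7*, a laminin receptor of muscle, by 0.66. *Itga3*, a laminin receptor of epithelia, rose from 10.9 ± 0.504 to 24.0 ± 7.22 CPM (1.13, adjusted p = 0.00692, edgeR), with Aff3ir-ORF2-/- replicate 2 lowest of the 3 at 15.9 CPM. *Itga6*, a laminin receptor of many cells, fell from 125 ± 5.12 to 74.6 ± 16.0 CPM (-0.75, adjusted p = 0.00794, edgeR). Without Aff3ir-ORF2-/- replicate 2 the changes of *Itga6*, *Itga7* and *Sgcd* were -0.58, 0.58 and 0.56, all just under 1.5-fold. *Itgb4*, the hemidesmosome integrin, was low (0.996 to 1.76 CPM as genotype means) and called lower, with an adjusted p of 0.0269 that passed 0.05 in 5 of 15 alternatives (up to 0.12). *Sdc4*, a syndecan, rose by 1.17, and *Bcam*, a receptor of the laminin α5 chain, rose by 1.15 from a low level (0.938 to 2.08 CPM). The most abundant of the list, *Itgb1*, the β1 integrin, *Plec*, plectin, and *Rpsa* had log2 fold changes of 0.33, 0.09 and -0.25 and were not called. Their adjusted p-values were 0.000513, 0.126 and 0.00118 (edgeR), so *Itgb1* and *Rpsa* missed only the 1.5-fold limit.

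**Figure D5:**
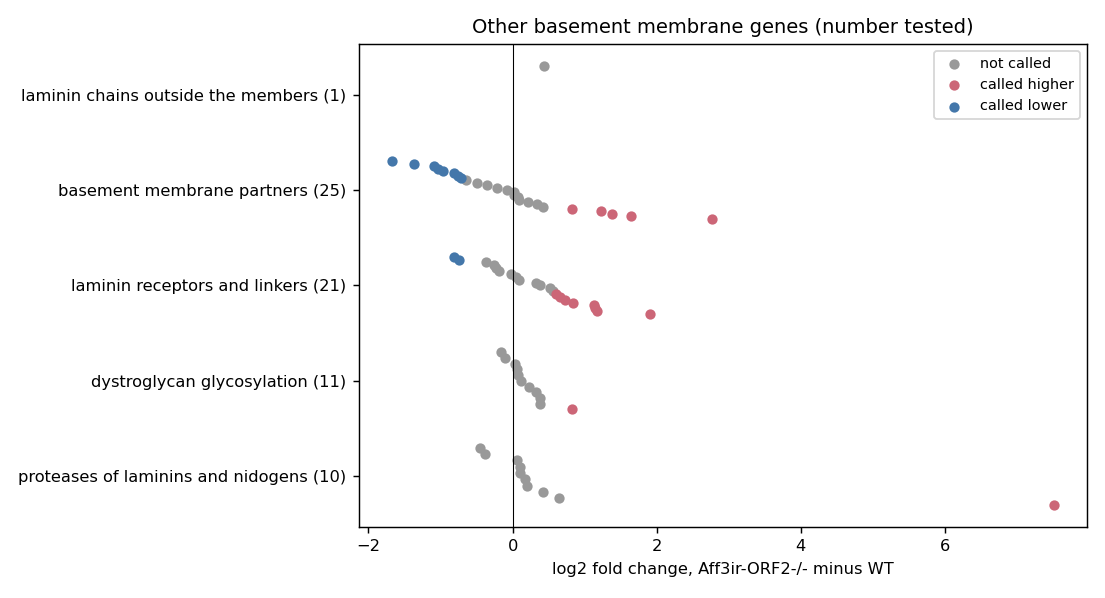
Log2 fold change (Aff3ir-ORF2-/- minus WT) of each tested gene in 5 lists of basement membrane genes, ordered within each list and coloured by call. The called genes of the partners lie on both sides of 0, and 8 of the 10 called receptors and linkers lie above 0.

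The enzymes that put laminin-binding sugars on dystroglycan had 1 called gene of 11 tested, *Pomgnt2*, which rose from 5.85 ± 0.275 to 10.3 ± 0.404 CPM (log2 fold change 0.82, adjusted p = 0.000117, edgeR). The median of this list was 0.12, beside 0.0056 for all tested genes, of which 21.4% were called. Its most abundant genes were *Pomgnt1* (log2 fold change 0.12), *Rxylt1* (0.06) and *B3galnt2* (0.32), none of them called. Their adjusted p-values were 0.0525, 0.509 and 0.00166 (edgeR), so *B3galnt2* missed only the 1.5-fold limit. Of 10 tested proteases that can cut laminins or nidogens, 1 was called, and the median was 0.14. *Ctss*, cathepsin S, rose from 0.879 ± 0.233 to 162 ± 30.04 CPM (7.52, adjusted p = 2.74e-06, edgeR). *Ctss* is also among the macrophage markers above, and the part of such cells in its level was not tested. *Mmp14*, *Mmp2* and *Bmp1*, the most abundant proteases, had log2 fold changes of 0.11, 0.42 and -0.45 and were not called. Their adjusted p-values were 0.235, 0.0180 and 0.000487 (edgeR), so *Mmp2* and *Bmp1* missed only the 1.5-fold limit. The adjusted p of *Mmp2* passed 0.05 in 5 of 15 alternatives (up to 0.0559).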

How the data were processed

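Sequenced RNA of MEFs, 3 libraries each of WT and Aff3ir-ORF2-/-, was analysed. The authors had reads from a DNBSEQ instrument filtered with SOAPnuke and deposited 1 table of estimated counts per gene, not normalized. The submitters' processing notes name the mouse build mm8. The aligner, the counting tool and the annotation are not given in the sources used here. Per library, 10.6% to 11.3% of values had a fractional part, and all were rounded.

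Genes were filtered with filterByExpr (minimum count 10, minimum total 15), scaled by TMM and tested with the robust quasi-likelihood fit of edgeR 4.0.16 in R 4.3.3, without covariates. Standard errors are the log2 fold change over the square root of F. On simulated data, 196 of 197 genes changed by 3-fold were recovered with 0 false calls among 12980 genes run. Recovery of changes nearer to the 1.5-fold limit was not tested, and neither was the share of false calls in the MEF libraries. Lengths came from GENCODE M21. Intervals and depth limits cover counting error only.

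The members and all gene lists were chosen with earlier results of these data known. Named are all members and, per list, up to 6 called genes per direction by adjusted p and the 3 most abundant genes. *Sgcb*, *Sgce*, *Utrn*, *Col4a1*, *Col4a2*, *Col4a5* and the other called genes (*Itga3*, *Bcam*, *Col17a1*, *Egfl6*) were added to these once their values were known. So were single markers of some cell types, among them the top markers. Some genes that these rules cover are not reported here. Alternatives were other scalings and filters, DESeq2 1.42.0, limma 3.58.1, the replicate number as a block, the omission of each library, a 2-fold threshold, and other lengths for shares and levels. The robust setting was taken after the data had been seen, because it gave the number of calls of an earlier analysis of these counts. The fit that was not robust and the length of merged exons were then added as alternatives. Promoters came from RefSeq. Figures were drawn with matplotlib 3.10.9.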

Additional observations from a re-analysis of the deposited data

How the results depend on the processing

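The signs of the 9 tested members' log2 fold changes were the same in each of the 15 alternative fits. A 2-fold threshold gave 1413 called genes in place of 2802 (1096 higher and 317 lower), and called 8 partners in place of 13, 4 receptors and linkers in place of 10 and no glycosylation enzyme (0) in place of 1. Called proteases were 2 in place of 1 with DESeq2's Wald test, with limma voom and with the fit that was not robust, and 1 to 2 when each library was left out, with 2 without Aff3ir-ORF2-/- replicate 1. The cause was not tested.

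No pairing by replicate number is given in the labels. Same-numbered libraries of the 2 genotypes correlated at 0.0386, 0.0424 and 0.0145 in their deviations across genes. These values are small, but each library correlated best with the one of its own number. Whether same-numbered libraries share more than the number was not tested. With the replicate number as a block 2808 genes were called, and 11 partners in place of 13. Members with few counts, *Lama3* and *Lama1*, are limited by depth.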
